A study of Mus musculus with 6 samples.

Results

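Expression of 9 B cell and plasma cell genes was followed in 6 mouse liver samples, each hybridised to 1 single-colour array. The genes, Ms4a1, Cd79a, Cd79b, Blk, Fcmr, Pou2af1, Mzb1, Jchain and Tnfrsf17, were chosen by name as genes of the B lineage, with earlier results of these data known. A probe was taken where its accession maps to one of these symbols. This gave 10 probes for 9 of the 18342 named genes on the array, with 2 probes for Jchain and 1 for each of the others. All mice had the BL6 background and carried the deletion Fah_del_tm1Mgo. Fah encodes the last enzyme of tyrosine breakdown. Mice without it live on the drug NTBC, which blocks the pathway upstream, and their livers are injured when it is withdrawn.

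The Fah group had this deletion alone and comprised tumour under the regimen labelled off, tumour under the regimen labelled 2xoff/on, and healthy liver under 100% NTBC. FCR mice carried in addition Rag2_del_tm1Fwa and a deletion of the common gamma chain (tm1Wjl, gene Il2rg), and comprised inflamed liver under off, inflamed liver under 2xoff/on, and normal liver under 100% NTBC. Continuous treatment meant 7.5 µg/ml NTBC in the drinking water, and both other regimens held 2 courses of withdrawal. The labels give neither the animals' age nor the NTBC phase in which each of the withdrawal livers was taken. Each combination of genotype and regimen is 1 array, the FCR strain has no tumour sample, and nothing in the labels says whether animals were pooled. Genotype and tumour therefore cannot be told apart where tumours are set against FCR liver, and p-values measure only the spread between these arrays, whose number limits the precision.

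B cells mature in the bone marrow once Rag1 and Rag2 have assembled their antigen receptor genes. The receptor signals through the paired chains Cd79a and Cd79b, and mature B cells carry Ms4a1, the antigen CD20. After activation some of them become plasma cells, which secrete antibody and express genes for antibody assembly such as Jchain and Mzb1. Rag2-deficient mice lack mature B and T cells, and loss of the common gamma chain removes NK cells as well.

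Values are given on the log2 scale as the processed signal over the 75th percentile of its array, so that 0 is the level of that percentile and different probes cannot be ranked against each other. Across the arrays 60.5% to 74.5% of 43379 spots were well above background, and none was saturated. The 75th percentile was 812 and 889 in tumours and 363 in healthy liver, against 363 and 724 in inflamed and 374 in normal FCR liver. The inflamed FCR array of the off regimen stood apart, at 104.3 on a second principal component (21.83% of variance) where the other 5 lay between -52.98 and 7.988. Regimen and slide coincide for 2xoff/on, whose 2 arrays lay on a slide of their own. Il2rg, the common gamma chain, was at -1.94 and -1.98 in tumours and -3.40 in healthy Fah liver, all well above background, and was well above background on no FCR array. The Rag2 probe stayed below that level on all 6 arrays and checks nothing here. Fah, labelled as deleted in every mouse, was well above background on all 6 arrays (-2.85 to -0.97), and where its probe lies relative to the deletion is not given in the files. Afp, a fetal liver gene often raised in liver tumours, was at 7.85 and 8.37 in tumours and 1.81 in healthy Fah liver, against 9.24 and 8.22 in inflamed and 2.46 in normal FCR liver. As a check of the labelled tissue, all 9 measured hepatocyte markers were well above background on every array.

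For the members that the RefSeq promoter table holds (5 of 9, build GRCm38.p6), the window from 250 bases before to 50 after the gene start was searched on both strands for 7 short motifs of B lineage and core promoter factors. The windows of Jchain, Pou2af1 and Fcmr are shown because these genes were among those with the highest signal in Fah against FCR liver, and that of Tnfrsf17 because it was not. Capitals mark motif matches, all read 5′ to 3′ on the strand of the gene, and positions count from 0 at the gene start.
Jchain chr5:88527848-88528147 (-): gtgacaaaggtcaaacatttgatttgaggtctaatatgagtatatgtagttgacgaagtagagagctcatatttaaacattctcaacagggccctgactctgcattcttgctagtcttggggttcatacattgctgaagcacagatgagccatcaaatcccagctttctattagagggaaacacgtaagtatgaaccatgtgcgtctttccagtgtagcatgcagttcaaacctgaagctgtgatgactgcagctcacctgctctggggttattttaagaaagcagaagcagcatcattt
Pou2af1 chr9:51213440-51213739 (+): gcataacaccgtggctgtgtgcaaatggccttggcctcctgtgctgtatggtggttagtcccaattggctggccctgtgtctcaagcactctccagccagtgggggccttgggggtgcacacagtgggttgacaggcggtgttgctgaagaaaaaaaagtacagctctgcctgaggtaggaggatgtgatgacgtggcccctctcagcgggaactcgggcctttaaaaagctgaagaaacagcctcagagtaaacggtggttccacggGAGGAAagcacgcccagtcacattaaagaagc
Fcmr chr1:130865527-130865826 (+): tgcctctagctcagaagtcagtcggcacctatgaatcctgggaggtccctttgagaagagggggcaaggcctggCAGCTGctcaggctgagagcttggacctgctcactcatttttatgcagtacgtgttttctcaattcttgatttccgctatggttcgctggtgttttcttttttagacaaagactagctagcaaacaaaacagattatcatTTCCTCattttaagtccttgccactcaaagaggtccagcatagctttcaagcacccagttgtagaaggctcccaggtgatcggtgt
Tnfrsf17 chr16:11313559-11313858 (+): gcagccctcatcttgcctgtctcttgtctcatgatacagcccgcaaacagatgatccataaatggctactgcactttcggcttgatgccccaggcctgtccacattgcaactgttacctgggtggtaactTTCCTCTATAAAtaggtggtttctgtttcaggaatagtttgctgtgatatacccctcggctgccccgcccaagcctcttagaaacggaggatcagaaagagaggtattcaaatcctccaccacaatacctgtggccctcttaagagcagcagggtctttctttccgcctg
GAGGAA, the core letters bound by PU.1, stood in 4 of the 5 windows in one orientation or the other and in 28.3% of 32851 windows of the same length. The match lies at -36 to -31 in Fcmr and -120 to -115 in Tnfrsf17, both as TTCCTC, at 18 to 23 in Pou2af1, and at -140 to -135 in Cd79a, whose window is not printed. TATAAA adjoins the match of Tnfrsf17 (13.6% of windows), and CAGCTG, an E-box, occurs in Fcmr (16.3% of windows). The octamer ATGCAAAT, present in 1.74% of windows, and the longer degenerate forms of the EBF palindrome (0.904%), the ETS and IRF composite (2.72%) and the kB element (0.411%) had no match in any of the 5, and the Jchain window held none of the 7. A match or its absence describes only the letters of these windows.

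Ms4a1 and Pou2af1 were higher in Fah than in FCR liver by limma's test over the 3 regimens, with regimen as a block, where 0.137% of tested genes were called higher. The other 6 tested members did not pass. Of these, 4 (Jchain, Cd79b, Fcmr and Mzb1) had all Fah values above all FCR values, which held for 2.35% of tested genes. Fcmr was well above background on 1 of its 3 FCR arrays. The median difference over the 8 was 2.47 on the log2 scale, against -0.11 over all genes tested. Wider lists of B cell surface genes and of plasma cell genes had medians of 0.62 and -0.16, where the second list holds genes with high signal on every array. Members and lists were chosen with earlier results of these data known, so these medians only describe them. Ms4a1 entered the test through its Fah arrays alone, so it could enter only by being high there. With no such filter, over all 18342 genes, it also passed (adjusted p = 0.00546, limma). Cd79a did not differ detectably and Tnfrsf17 was lower by value in Fah liver, without passing the test. Among members measured in both genotypes Jchain had the largest difference, and it was the one called in tumour against inflamed liver. The plot of each gene by array gives all values used.

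**Figure D1:**
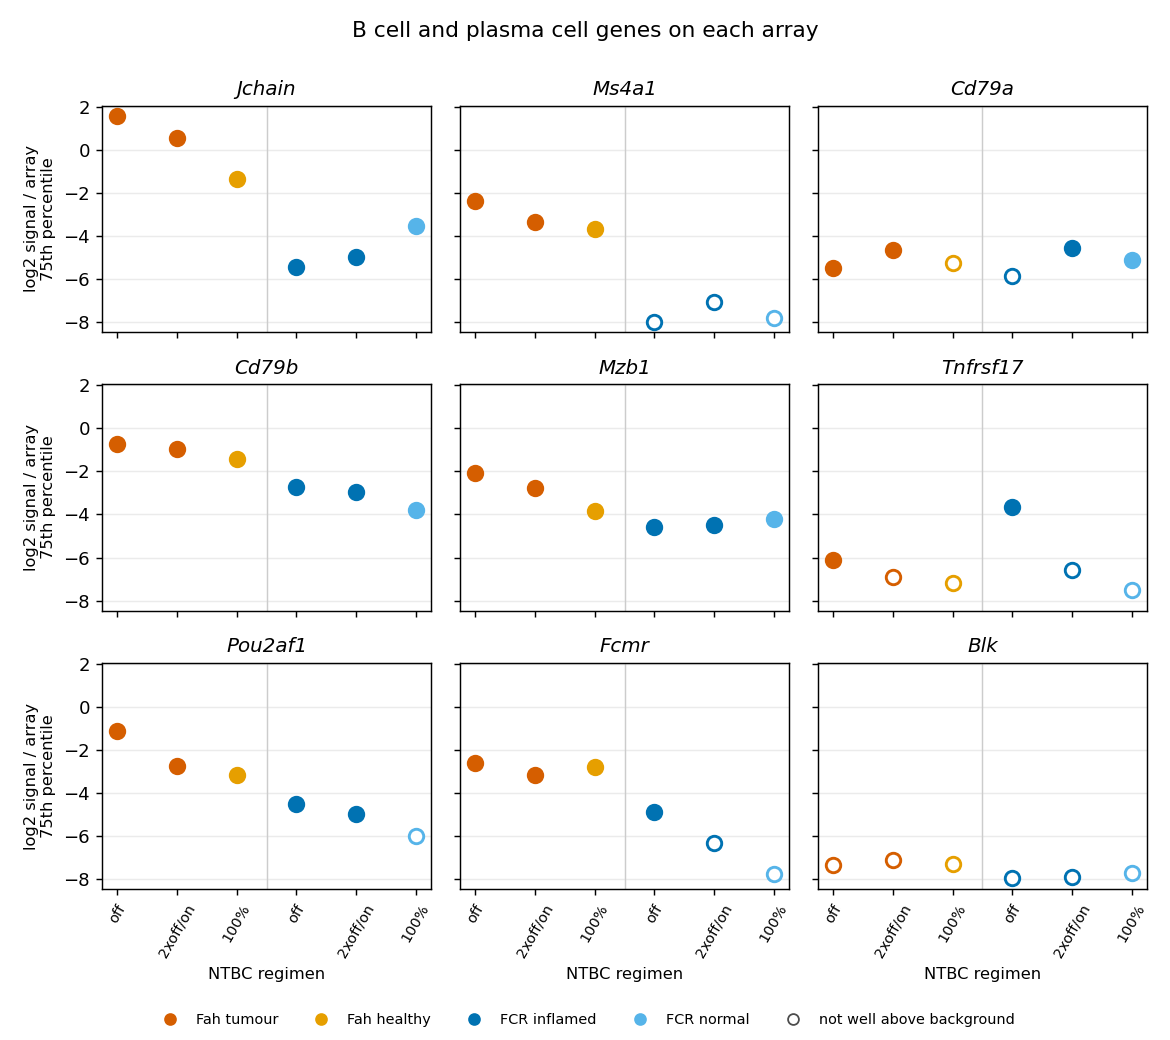
Log2 level of the 9 genes on each of the 6 arrays (the 75th percentile of an array is 0), with Fah arrays left and FCR arrays right in each panel and open points for probes not well above background. Jchain, Ms4a1, Cd79b, Mzb1, Pou2af1 and Fcmr have all 3 Fah values above all 3 FCR values, while Cd79a and Tnfrsf17 overlap and Blk is open on every array.

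Among genes of the B cell surface and its receptor, Ms4a1 encodes CD20, a membrane protein of mature B cells. Its log2 signal was -2.38 in the off tumour, -3.38 in the 2xoff/on tumour and -3.69 in healthy Fah liver. In FCR liver the values were -7.99 and -7.07 in the inflamed samples and -7.83 in the normal one. Every Fah array was well above background and no FCR array was, so the groups do not overlap and the FCR values are bounds. The fitted difference between Fah and FCR was 4.48 ± 0.53 (SE, adjusted p = 0.0176, limma). Taking for each FCR array the higher of its probe signal and the lowest signal among its probes well above background, Ms4a1 was at least 5.62-fold higher in Fah liver. Bounds given as "at least" for other genes follow the same rule. In bulk samples fewer cells of a type and less RNA per cell cannot be told apart.

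Cd79b, the beta chain of the receptor's signalling pair, was at -0.74 and -0.95 in tumours and -1.44 in healthy Fah liver. It was at -2.71 and -2.97 in inflamed and -3.79 in normal FCR liver, and was well above background on all 6 arrays. The groups do not overlap, with a near constant gap under each regimen: 2.35 at 100% NTBC, 1.97 at off and 2.02 at 2xoff/on. The difference was 2.11 ± 0.34 (SE) and missed the threshold (adjusted p = 0.0596, limma). Its partner Cd79a, the alpha chain, was at -5.50 and -4.66 in tumours and -5.27 in healthy Fah liver, against -5.87 and -4.54 in inflamed and -5.13 in normal FCR liver. These values overlap throughout, the 2xoff/on array was the highest in either genotype, and the probe was well above background on 4 arrays, among them 2 of FCR. The difference was 0.03 ± 0.44 (SE, adjusted p = 0.980, limma), and across the 6 arrays Cd79a and Cd79b correlated at r = -0.039.

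Fcmr, a receptor for IgM on B cells, was at -2.61 and -3.18 in tumours and -2.81 in healthy Fah liver. FCR values were -4.90 and -6.30 in inflamed and -7.75 in normal liver, with the off array alone well above background. All Fah arrays were above all FCR arrays. The gap was 2.29 at off, the one regimen with Fcmr well above background in both genotypes, and the values of 4.94 at 100% NTBC and 3.12 at 2xoff/on have no order. The fitted difference of 3.45 ± 0.57 (SE) did not pass the threshold (adjusted p = 0.0675, limma). Blk, a Src family kinase of the B cell receptor pathway, stayed below background level on all 6 arrays (-7.36, -7.09 and -7.29 in Fah liver, -7.93, -7.89 and -7.72 in FCR liver). It was not tested, and its higher values in Fah liver have no order below background.

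Pou2af1, also known as OBF-1 or OCA-B, is a coactivator that binds octamer factors and is needed for germinal centres. Its log2 signal was -1.11 in the off tumour, -2.75 in the 2xoff/on tumour and -3.17 in healthy Fah liver. FCR liver had -4.50 and -4.97 in the inflamed samples and -6.01 in the normal one, the last not well above background. The groups do not overlap, and within both genotypes the off array was highest and the 100% array lowest. The difference was 2.82 ± 0.42 (SE, adjusted p = 0.0447, limma), with Fah above FCR by 3.39 at off and 2.23 at 2xoff/on. The value of 2.83 at 100% NTBC rests on an FCR signal not well above background.

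Of the plasma cell genes, Jchain encodes the small chain that joins IgA and IgM into polymers. Its brighter probe was at 1.57 in the off tumour, 0.56 in the 2xoff/on tumour and -1.36 in healthy Fah liver, against -5.45 and -4.97 in inflamed and -3.56 in normal FCR liver. All 6 values were well above background, in processed signal 2406, 1311 and 141 in Fah against 8.29, 23.1 and 31.7 in FCR liver. The lowest Fah array, healthy liver, thus lay 2.20 above the highest FCR array, which was the normal liver of the same regimen. The gap was 7.02 at off and 5.53 at 2xoff/on. Fah arrays averaged 0.26 ± 1.49 and FCR arrays -4.66 ± 0.98 (SD, n = 3 each), and the fit gave 4.92 ± 0.78 (SE), which missed the threshold (adjusted p = 0.0586, limma).

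The second Jchain probe ran in parallel at lower signal. It was at 0.53, -0.62 and -2.40 in the off, 2xoff/on and 100% Fah arrays, against -6.38, -6.58 and -4.60 in the FCR arrays of the same regimens. It was not well above background on either inflamed array. With both probes averaged the difference was 4.97 (adjusted p = 0.134, limma), so both probes had the same direction and the call did not change.

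Mzb1, an endoplasmic reticulum chaperone that helps assemble secreted IgM, was at -2.09 and -2.79 in tumours and -3.82 in healthy Fah liver. It was at -4.58 and -4.47 in inflamed and -4.20 in normal FCR liver, with all 6 arrays well above background. Fah values lie above FCR values, narrowly so at 100% NTBC, where the gap was 0.38, and by 2.49 at off and 1.68 at 2xoff/on. The difference of 1.52 ± 0.49 (SE) did not pass (adjusted p = 0.317, limma). Tnfrsf17, or BCMA, is a survival receptor of plasma cells. It was at -6.11 and -6.92 in tumours and -7.17 in healthy Fah liver, against -3.66 and -6.58 in inflamed and -7.49 in normal FCR liver. Both off arrays were well above background and the other 4 were not, and the highest value was that of the inflamed FCR liver under off, the array that stood apart on the second principal component. The difference was -0.82 ± 0.64 (SE, adjusted p = 0.609, limma).

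Of the 8 tested members, 2 were called higher in Fah liver, where 0.137% of 15382 tested genes were called higher (21 genes), and none of the 8 was called lower. At an unadjusted p under 0.05, 6 members were higher, against 4.9% of tested genes. The same 6 (Jchain, Ms4a1, Cd79b, Mzb1, Pou2af1 and Fcmr) had groups that do not overlap, which held for 2.35% of tested genes in that direction. They also had Fah above FCR under all 3 regimens, which held for 13.2% of tested genes. The number of members well above background was 8, 7 and 6 in the off, 2xoff/on and 100% Fah arrays, against 6, 5 and 4 in the FCR arrays. Over all spots the shares on these arrays were 71.8%, 74.5% and 60.5%, against 68.1%, 69.8% and 64.4%. The calls depended on which regimen was left out. Without both off arrays, no member and no gene passed (Ms4a1 3.92, adjusted p = 0.247, limma), and the median over the 7 members then tested was 2.53. Without the 100% arrays 6 members passed, among 987 of 15288 genes called (533 higher). Within the first slide, without the 2xoff/on arrays, 5 members passed, among 326 of 14675 genes called (141 higher). The cause of these shifts was not tested. With no regimen block neither Ms4a1 (adjusted p = 0.163, limma) nor Pou2af1 (adjusted p = 1.00, limma) passed. With a stronger background correction (normexp) the differences shrank to 0.84 for Ms4a1 and 1.00 for Pou2af1, neither passing, while those of Jchain (2.92) and Cd79b (1.27) passed. That setting called 347 of 15382 genes (113 higher).

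**Figure D2:**
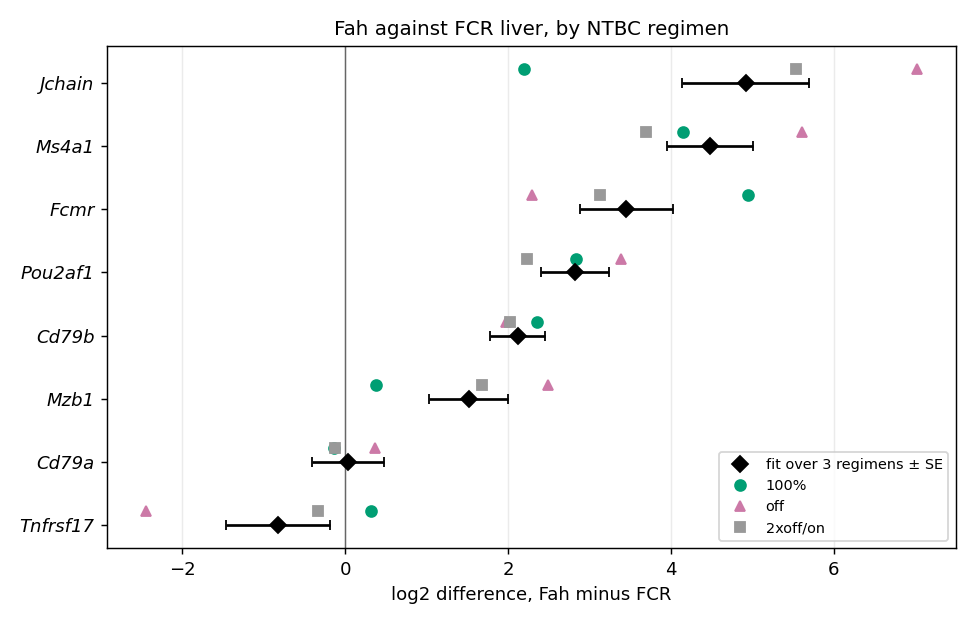
Log2 difference between Fah and FCR liver for each gene, with diamonds and bars for the fit over 3 regimens ± SE and coloured symbols for the single pair of arrays under each regimen; pairs with a signal not well above background, such as all of Ms4a1, have no exact value. Jchain has the widest range among regimens, from 2.20 at 100% NTBC to 7.02 at off, and Cd79b one of the narrowest, from 1.97 to 2.35.

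Set against inflamed FCR liver, the member in which the 2 tumours differed most was Jchain. Tumours averaged 1.06 ± 0.71 and inflamed livers -5.21 ± 0.34 (SD, n = 2 each), a difference of 6.27 ± 0.61 or 77.4-fold (SE, adjusted p = 0.0112, limma). With normexp the Jchain difference was 3.81 and still passed. With the authors' values or a common floor Jchain did not pass. Jchain was 1 of 8 members called, where 0.0715% of tested genes were called higher, and 6 members were higher at an unadjusted p under 0.05, against 4.21% of tested genes. The same 6 had groups that do not overlap, as had 16.1% of tested genes. Leaving out any 1 of these 4 arrays kept it past the threshold, at 5.77 to 6.78. Ms4a1 differed by 4.65 ± 0.78 (SE, at least 7.10-fold, adjusted p = 0.0661, limma). Pou2af1 (2.81 ± 0.74), Fcmr (2.71 ± 0.75), Mzb1 (2.08 ± 0.63) and Cd79b (2.00 ± 0.55, each ± SE) had adjusted p values of 0.230 to 0.309, while Cd79a differed by 0.12 and Tnfrsf17 by -1.39. The median over the 8 was 2.40, against -0.13 over all tested genes. With slide as a block 6 members passed, where calls over all genes rose from 33 to 968 of 15382 (515 higher).

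The design text of the series sets the tumours against the FCR arrays of 100% NTBC and 2xoff/on, leaving out the inflamed off array. Among those 4 arrays no member passed limma's test, and neither did any of 15175 genes (0% called). At an unadjusted p under 0.05, 6 of 7 tested members were higher, against 7.78% of tested genes. Of these 6, Ms4a1 and Fcmr were well above background in the 2 tumours alone. They could enter this fit only by being high there. The differences were 5.33 ± 0.69 for Jchain, 4.57 ± 0.71 for Ms4a1 (at least 6.50-fold) and 4.13 ± 0.75 for Fcmr (at least 6.44-fold), each ± SE with adjusted p = 0.295. Pou2af1 followed at 3.56, Cd79b at 2.53 and Mzb1 at 1.90, and Cd79a at -0.25. Tnfrsf17 was well above background on only 1 of the 4 arrays and was not tested. These comparisons share arrays with those above and are not independent of them.

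No member passed the test of a withdrawal regimen against continuous NTBC in either genotype. In Fah mice, tumour against healthy liver gave 0 of 8 calls with limma (1 at an unadjusted p under 0.05, Jchain), where 5.06% of tested genes were called and 18.6% had such a p, in either direction. Jchain was higher by 2.43 ± 0.75 (SE, adjusted p = 0.108, limma), in both tumours. Mzb1 differed by 1.38 ± 0.77, Pou2af1 by 1.25 ± 0.90 and Ms4a1 by 0.81 ± 0.95 (each ± SE), none past the threshold, and Fcmr by -0.09 ± 0.92. With slide as a block, and with normexp, Jchain passed. Calls over all 15382 genes went from 778 to 2514 with the slide block and to 816 with normexp.

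In FCR mice, inflamed against normal liver likewise gave 0 of 8 calls (1 at an unadjusted p under 0.05, Fcmr), where 1.76% of tested genes were called and 13.9% had such a p. Jchain differed by -1.65 ± 0.75 (SE, adjusted p = 0.377, limma) and Mzb1 by -0.32 ± 0.77. Fcmr differed by 2.15 ± 0.92, with 1 of its 3 FCR arrays well above background and no bound above 1, Pou2af1 by 1.28 ± 0.90 (at least 1.71-fold) and Tnfrsf17 by 2.36 ± 1.29 (at least 1.31-fold), each ± SE and without passing. Tnfrsf17 rests on the off array: without it, its probe was well above background on too few arrays to be tested, and without the 2xoff/on array its difference was 3.82. Ms4a1 was well above background on no FCR array, so it has no fold here. With slide as a block Fcmr and Tnfrsf17 passed, where calls over all genes rose from 270 to 1891 of 15382. With normexp both turned to slightly negative differences (-0.15 and -0.08).

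**Figure D3:**
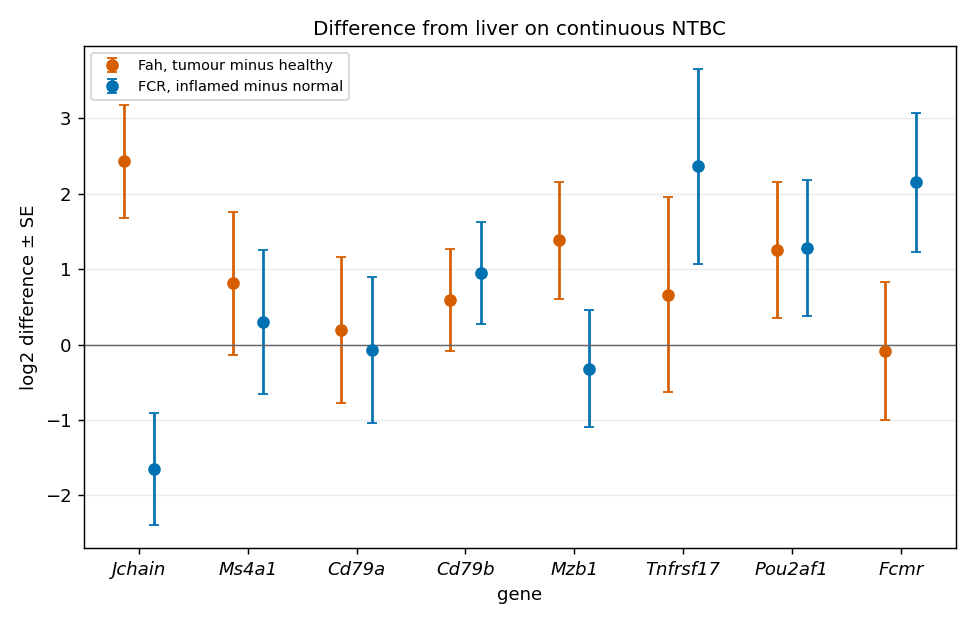
Log2 difference ± SE from liver on continuous NTBC for the 8 tested genes, with tumour minus healthy Fah liver left and inflamed minus normal FCR liver right for each gene. Jchain has a positive difference in Fah (2.43) and a negative one in FCR (-1.65), and Fcmr lies near 0 in Fah (-0.09) and at 2.15 in FCR, where 2 of its 3 arrays were not well above background.

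Jchain and Mzb1 were above the continuous-NTBC liver in both Fah tumours and below it in both inflamed FCR livers, a pattern found in 2.66% of tested genes. The difference between both withdrawal responses was 4.08 ± 1.06 for Jchain (SE, unadjusted p = 0.00401, adjusted p = 1.00, limma) and 1.70 ± 1.10 for Mzb1. No gene passed that test (0% called), and 2.15% of genes had an unadjusted p under 0.05. With slide as a block the difference for Jchain passed, as 1 of 91 genes called among 15382. Between the withdrawal regimens themselves, 1 array each, Pou2af1 was 1.64 higher in the off than in the 2xoff/on tumour and Jchain 1.01 higher, against 0.48 and -0.48 for these genes in inflamed FCR liver. Cd79a ran the other way in both genotypes, at -0.84 in tumours and, with an off array not well above background, -1.32 in inflamed liver. Slide changes with these regimens and cannot be told apart from them.

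Across the 6 arrays, the profiles of Jchain and Mzb1 (r = 0.965), of Cd79b and Fcmr (r = 0.966) and of Cd79b and Pou2af1 (r = 0.965) were the most alike among members. The arrays share genotype and slide, and these values only describe them. Part of the Fcmr and Pou2af1 values were not well above background. Among 13093 genes well above background on all 3 Fah arrays, a filter that favours genes high in Fah liver, those most alike Jchain were Podnl1 (r = 0.997), Ctsw (0.986), Pbx4 (0.983), Arhgap39 (0.982) and Il2rg (0.981). Il2rg is itself deleted in FCR mice, and its 3 FCR values were not well above background. Those most alike the mean profile of the 8 tested members were Spon2 (0.991), Xlr3c (0.977), Jpt2 (0.976), Cltc (0.974) and Ctxn1 (0.974).

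Other genes of the lineage were read from lists of named genes. Of 22 tested genes of the B cell surface and receptor signalling, none passed the test of Fah against FCR over 3 regimens, 8 were higher at an unadjusted p under 0.05 and 17 had a positive difference (median 0.62). Over all tested genes 4.9% were higher at such a p and 41.7% had a positive difference. Fcrla, a Fc receptor-like protein of B cells, led with 2.53 ± 0.50, followed by the inhibitory lectin Cd22 with 1.63 ± 0.50 and the chemokine receptor Cxcr5 with 1.57 ± 0.57 (each ± SE, adjusted p = 0.131 to 0.363, limma). Cd22 was at -2.02 and -2.15 in tumours and -3.79 in healthy Fah liver, against -4.45 and -4.30 in inflamed and -4.09 in normal FCR liver.

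B cell transcription factors had 0 of 12 tested genes called and 10 positive differences (median 0.32). Spib, an ETS factor of B cells and plasmacytoid dendritic cells, had the largest at 1.41 ± 0.41 (SE, adjusted p = 0.283, limma). Pax5 and Ebf1, which hold B cell identity, were well above background on 1 array each, the 2xoff/on tumour. That array also had the largest share of all spots well above background (74.5%). Of 14 tested plasma cell genes none passed, none was higher at an unadjusted p under 0.05, and 5 had a positive difference (median -0.16). The list holds genes with signals above the 75th percentile on every array, among them Creld2 (4.08 to 5.01) and Ssr4 (3.88 to 4.63). Its median is therefore not a measure of plasma cells alone, and the cells behind these signals were not tested. Irf4, which drives plasma cell differentiation, was well above background in both tumours (-4.70 and -5.06) and on no other array. Xbp1, the secretory pathway factor that hepatocytes also express, was at 2.91 and 2.45 in tumours and 3.86 in healthy Fah liver, against 0.83 and 2.45 in inflamed and 3.43 in normal FCR liver. None of the 20 immunoglobulin genes listed had a named probe, so antibody transcripts were not analysed here. The 6 tested precursor B cell genes had 0 calls and a median of -0.09.

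Of 13 tested B cell survival and homing factors, Ltb passed and 10 had a positive difference (median 0.39). Ltb, the lymphotoxin chain that organises lymphoid tissue and is made by B, T and NK lineage cells, was at 2.83 and 2.14 in tumours and -1.20 in healthy Fah liver. It was at -0.27 and -1.76 in inflamed and -4.26 in normal FCR liver, so the groups overlap while Fah exceeded FCR under each regimen. The difference was 3.35 ± 0.32 (SE, adjusted p = 0.00803, limma). Of 7 tested genes for antibody transport and Fc receptors none passed, and 1 had a positive difference (median -0.33).

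Some markers of other lymphocytes also passed the same test. Of 14 tested T cell markers 1 passed, Cd8a at 3.96 ± 0.59 (SE, adjusted p = 0.0447, limma), 12 had a positive difference and the median was 0.97. Cd8a entered the test through the 2 tumours, the arrays where it was well above background. The negative differences were those of Cd3e (-0.17) and Cd4 (-0.29), both well above background on all 6 arrays. The T cell list had 15, 14 and 10 of 16 genes well above background in the off, 2xoff/on and 100% Fah arrays, against 10, 10 and 9 in the FCR arrays. Over all spots the 2 tumours also had the largest shares well above background (71.8% and 74.5%). Its summed signal, relative to the 75th percentile, was 2.75 to 2.79 in Fah and 1.42 to 1.98 in FCR liver. Of 10 tested NK cell markers 2 passed, the granzymes Gzma and Gzmb, with 9 positive differences and a median of 1.80. Gzma too was well above background in the 2 tumours alone. Eomes, a transcription factor of NK and some T cells, had the negative difference (-2.74 ± 0.89, SE, adjusted p = 0.323, limma). It was at -5.93 and -3.97 in tumours and -7.21 in healthy Fah liver, against -0.97 and -0.32 in inflamed and -7.59 in normal FCR liver. The summed signal of the NK list, to which Eomes adds, was 0.377 to 1.71 in Fah and 0.160 to 0.995 in FCR liver. Plasmacytoid dendritic cells, which also express some B lineage genes, had 11, 11 and 6 of 11 markers well above background in the Fah arrays, against 10, 9 and 7 in the FCR arrays, with summed signals of 34.2 to 180 in Fah and 52.0 to 221 in FCR liver. Siglech, their defining lectin, was well above background in both tumours (-4.91 and -4.89) and on no other array. Bst2, an interferon-induced gene of that list, had all Fah values below all FCR values, with a difference of -1.26 ± 0.35 (SE, adjusted p = 0.263, limma). Bst2 (4.21 to 6.19 over the arrays) and Ly6d (6.19 to 7.30 in tumours and inflamed livers) together make up most of the summed signals of that list. None of the 11 passed, and 2 were higher and 2 lower at an unadjusted p under 0.05 (median 0.32). None of 12 macrophage and dendritic cell markers passed, and 4 were higher at such a p (median 0.52), against 4.9% of tested genes. The hepatocyte list had a median of -0.11, with summed signals of 1717 to 4431 in Fah and 2254 to 4073 in FCR liver. The part of these cell types in the values of the members was not tested.

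**Figure D4:**
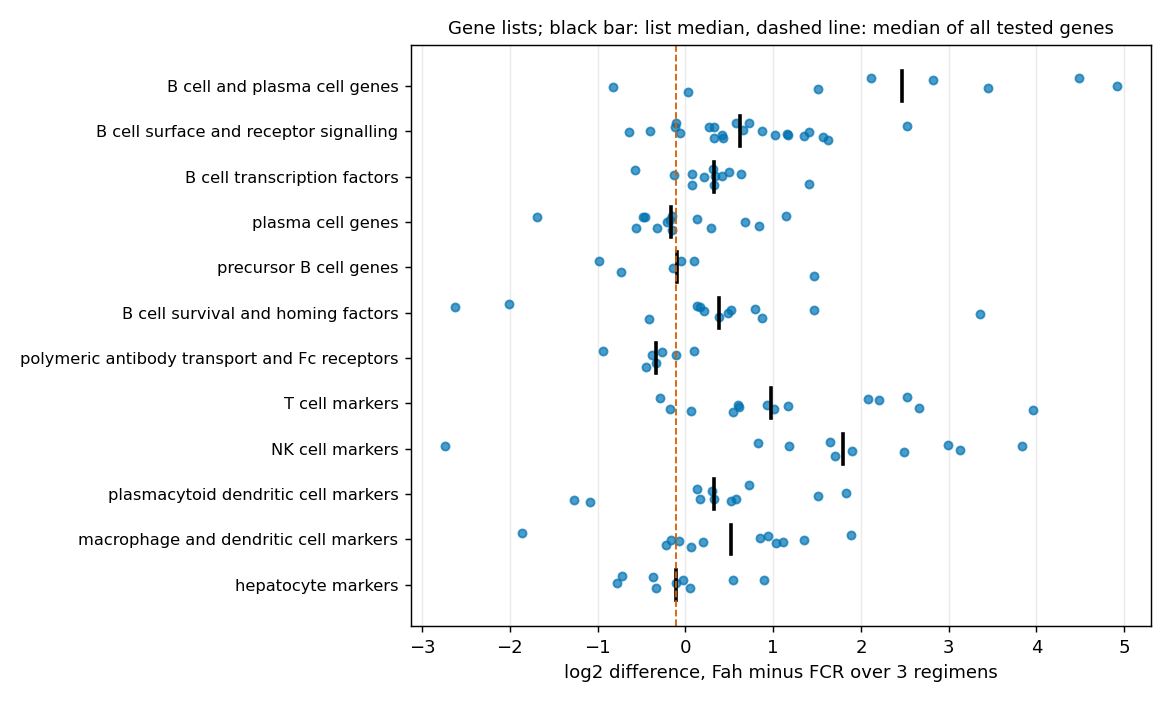
Log2 difference between Fah and FCR liver over 3 regimens for every tested gene of each list, 1 point per gene, with a black bar at the list median and a dashed line at the median of all tested genes (-0.11). The B cell and plasma cell genes have a median of 2.47, NK cell markers 1.80 and T cell markers 0.97, while the plasma cell gene list sits at -0.16. Members and lists were chosen with earlier results of these data known.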

How the data were processed

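Total RNA of 6 liver samples was labelled with Cy3 and hybridised to 1 Agilent mouse array each, per the labels. Per the file headers, the deposited scanner files came from Feature Extraction 10.7.3.1 with protocol GE1_105_Dec08 and a design on mm9, and hold a background-subtracted processed intensity per spot, not normalized between arrays. The submitters' processing notes name version 10.5. The authors also deposited a series table of log2 values, which served as an alternative. How its arrays were equalised is not stated; each of its columns followed the array's own log2 median signals with r = 0.996 to 0.999.

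Control and outlier spots were left out, spots of a probe were averaged, and the log2 processed signal was set relative to its array's 75th percentile. Of 41174 probes, 29 were missing on an array, 41145 were used and 26912 were named, by matching accessions to RefSeq genes (GRCm38.p6), for names only. The probe with the highest mean stood for a gene. A gene entered a fit if 2 or more of its arrays were well above background. The test was that of limma 3.58.1 under R 4.3.3 (lmFit, eBayes with trend, two-sided, Benjamini-Hochberg at 0.05 over all tested genes). The fits were Fah against FCR with regimen as a block, 4 group means over 6 arrays (2 residual degrees of freedom, lone arrays assumed to vary like the others), and the 4 arrays of the design text. Steps were tested on simulated data.

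All 9 members were named, with up to 3 genes per other list by the largest absolute difference between Fah and FCR, and the 5 genes most alike Jchain or the mean member profile. Pax5, Eomes, Ebf1, Irf4, Xbp1, Siglech and the genes of the closing section were in part singled out after their values were seen. Members and lists were chosen with earlier results of these data known. Alternatives were background correction (normexp, offset 50), quantile and median scaling, filters, probe averaging, no trend, a common floor of -5.12, slide as a block, no regimen block, and leaving out arrays. Accessions mapping to several symbols were left unnamed, and some listed genes are not reported here.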

Additional observations from a re-analysis of the deposited data

How the results depend on the processing

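Members called in Fah against FCR over 3 regimens numbered 2, and 0 with quantile scaling, the authors' values, a common floor or no regimen block, 5 with the array median or no filter, 1 with probes averaged, and 0 to 6 when a regimen was left out. In tumour against inflamed liver 1 was called, and 2 with the array median, averaged probes or no trend, 0 with the authors' values or the floor, 6 with slide as a block, and 1 to 2 when an array was left out. In tumour against healthy liver 0 were called, and 1 with normexp or slide as a block. Slide as a block gave 2 in place of 0 in inflamed against normal liver and 1 in place of 0 for the difference of responses. For the design text's arrays 0 were called, and 0 to 5 when an array was left out (5 without the FCR 2xoff/on array, 1 without FCR 100%). Genes called over 3 regimens numbered 48, from 0 (common floor) to 987 (without 100%). They numbered 13 with quantile scaling, 10 with the authors' values and 1 with no regimen block. With the array median they numbered 74, with no filter 76 of 18342, and with probes averaged 27. In tumour against inflamed liver they numbered 33, from 0 (common floor) to 968 (slide block). There they numbered 85 with the array median, 40 with probes averaged, 49 with no trend and 4 with the authors' values. In tumour against healthy liver they numbered 778, from 0 (common floor) to 2514 (slide block), and in inflamed against normal liver 270, from 0 (common floor) to 1891 (slide block). The difference of responses had 0, up to 91 (slide block), and the design text's arrays 0, up to 2203 (without FCR 2xoff/on). Of 593 recomputed member differences, 504 kept direction and side of the threshold, 36 newly passed, 15 no longer passed and 38 turned sign, none of them in a value that had passed. Those that turned were, over 3 regimens, Cd79a with normexp (-0.32), the array median (-0.029), the floor (-0.041) and without off (-0.13). In tumour against inflamed liver they were Cd79a with normexp (-0.48), the floor (-0.061) and when an array was left out (-0.54 to 0.78). In tumour against healthy liver, normexp turned Ms4a1 (-0.028), Cd79a (-0.66) and Tnfrsf17 (-0.91), Cd79a also turned with quantile scaling (-0.29), the array median (-0.17), slide as a block (-0.35) and when an array was left out (-0.23 to 0.61), and Fcmr with slide as a block (0.41) and when an array was left out (-0.37 to 0.20). In inflamed against normal liver, normexp turned Ms4a1 (-0.32), Tnfrsf17 (-0.080), Pou2af1 (-0.049) and Fcmr (-0.15), Ms4a1 also with the authors' values (-0.15) and when an array was left out (-0.16 to 0.76), and Cd79a with the floor (0.29) and when an array was left out (-0.73 to 0.59). For the difference of responses, normexp turned Cd79a (-0.49), Cd79b (0.12) and Pou2af1 (0.42), quantile scaling Ms4a1 (-0.097), the authors' values Pou2af1 (0.11), and the floor Cd79a (-0.061) and Pou2af1 (0.86). It also turned when an array was left out, for Cd79a (-0.40 to 0.93) and Pou2af1 (-0.85 to 0.79). For the design text's arrays Cd79a turned when an array was left out (-0.67 to 0.17). The median of all genes in tumour against healthy liver was -0.08, -0.44 with the array median and -0.30 with normexp. The cause of these changes was not tested. Replicate numbers follow sample order and coincide with regimen, so the replicate block is the regimen or slide block given here. Signal over background limits Ms4a1, Tnfrsf17 and Blk, not well above it on 3 or more arrays, and Fcmr and Cd79a, on 2.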

Other observations

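Some genes linked to B cells had their highest values in inflamed FCR liver, and none of the 4 given here passed the test of Fah against FCR. Il6, a cytokine that helps plasma cells survive, was at -4.29 and -4.14 in tumours and -4.53 in healthy Fah liver, against -0.47 and -0.71 in inflamed and -3.91 in normal FCR liver. Over the 3 regimens it differed by -2.62 ± 0.61 (SE, adjusted p = 0.203, limma). Il10, a cytokine of regulatory B cells and of macrophages, was well above background in both inflamed FCR livers (-3.08 and -3.18) and in the 2xoff/on tumour (-5.71). Against normal FCR liver it was at least 5.18-fold higher in inflamed liver, without passing the test (adjusted p = 0.140, limma). Vpreb3, a protein of the precursor B cell receptor, was at -2.59 and -2.16 in tumours and -2.40 in healthy Fah liver, against -0.38 and -1.25 in inflamed and -2.58 in normal FCR liver. Il7r, the interleukin-7 receptor of lymphoid precursors, was highest in the inflamed FCR liver under off (-1.23). It was otherwise well above background in the 2 tumours only (-3.11 and -3.61). That inflamed array is the one that stood apart from the rest.

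Pigr, the receptor that carries polymeric antibody with the Jchain protein across epithelia, was lower by value away from continuous NTBC. It was at 0.10 and 0.31 in tumours and 4.66 in healthy Fah liver, a difference of -4.46 ± 1.09 (SE, adjusted p = 0.0521, limma). In FCR liver it was at -0.59 and 2.59 in inflamed and 4.40 in normal liver, a difference of -3.40 ± 1.09 (SE, adjusted p = 0.184, limma). Tumours thus had the highest Jchain signal of the 6 arrays and a Pigr signal below both livers on continuous NTBC. Both inflamed FCR livers, which had the lowest Jchain signal, also had a Pigr signal below those livers. Herpud1, an endoplasmic reticulum stress gene of the plasma cell list, passed as lower in tumour (4.36 and 3.80) than in healthy liver (6.63). It was also lower by value in inflamed (4.76 and 4.51) than in normal FCR liver (6.51). Ccl20, a ligand for Ccr6 on B cells, passed as higher in tumour (-2.06 and -1.71) than in healthy liver (-5.50, not well above background). It was also higher by value in inflamed (-4.17 and -3.77) than in normal FCR liver (-5.73, not well above background). Neither gene passed in inflamed against normal FCR liver. In tumour against healthy liver 5.06% of tested genes were called in either direction.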
